A study of Mus musculus with 20 samples.

Results

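The cytosolic ribosomal protein genes were followed across 4 groups of mouse hindlimb muscle libraries. They were taken from the count table by symbol: every row whose name begins with Rpl or Rps and a digit, plus the stalk genes Rplp0, Rplp1 and Rplp2. Rows named as pseudogenes (160 rows with -ps in the symbol) and the 9 ribosomal protein S6 kinase rows were left out. Of 92 symbols, 91 reached 1 CPM (a library's count of a gene scaled to 1000000 counts in all) in 5 or more libraries out of 20, among 21844 genes in the table and 14361 past the same filter. Just outside lay Rpl39l, with 0 libraries at that level and a highest value of 0.575 CPM. Just inside lay Rpl32l with 9 libraries, Rps23rg1 with 11 and Rps27 with 13, and the other members passed in all 20. The rule used the symbol and a minimum level over all libraries, without regard to group.

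The cytosolic ribosome translates nuclear-encoded messenger RNA. Its large subunit carries the L proteins and its small subunit the S proteins, and the P0, P1 and P2 stalk on the large subunit recruits translation factors. Ribosomal protein messenger RNAs typically start with a 5′ terminal oligopyrimidine (TOP) tract, a C followed by further C or T bases at the first transcribed position, through which mTORC1 and the RNA-binding protein Larp1 control their translation. Skeletal muscle is known for a paralog, Rpl3l, which takes the place of Rpl3 in muscle ribosomes. The symbol rule also brings in rows that are not structural ribosomal proteins: Rps19bp1 encodes a nucleolar partner of the S19 protein and regulator of the deacetylase Sirt1, Rpl7l1 a nucleolar relative of L7, and Rps23rg1 a retrogene product. Conversely Rpsa, Fau and Rack1 belong to the ribosome but do not match the symbol rule and are given with the related genes.

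All animals were Cre+:iMSBmal1 fl/fl mice. They carry a floxed Bmal1 gene, which encodes the clock transcription factor BMAL1 and is listed as Arntl, together with an inducible, skeletal muscle-specific Cre recombinase, so that other cells of the muscle keep Bmal1. The labels name neither the promoter that drives Cre nor the agent that switches it on. Vehicle-treated mice and mice labelled iMSBmal1KO were either kept without exercise or given daily treadmill training over 6 weeks, with 5 libraries in each group: vehicle sedentary, knockout sedentary, vehicle trained and knockout trained. The labels give no ages. They name both the gastrocnemius and the tibialis anterior as the tissue, and both 47 and 48 hours as the interval to collection. The comparisons ask what loss of muscle BMAL1 does to these transcripts, what training does, and whether the training difference depends on genotype.

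Estimated counts summed to between 10610333 and 19153527 per library. Knockout trained libraries 1 and 4, and 3 and 5, differed so little that each couple was counted as 1 sample, which leaves 3 samples in that group and 18 in all. The labels do not say that libraries of a group came from separate mice, so p-values measure only the spread between these samples, which may be technical. Vehicle trained library 2 stood apart: the summed level of 10 muscle fibre markers was 54830 CPM there and 73720 to 98780 CPM in the other samples. The targeted gene was not lower in the sedentary libraries labelled knockout: Arntl was at 13.2 ± 3.28 CPM (SD, n = 5) there and at 6.79 ± 0.890 CPM (SD, n = 5) in the vehicle sedentary group (two-sided exact permutation test, p = 0.00794). In the trained groups it was at 10.9 ± 4.46 CPM (SD, n = 3) in knockout-labelled and 31.6 ± 56.3 CPM (SD, n = 5) in vehicle samples, where library 2 alone had 132.3 CPM (exact permutation p = 0.786, and p = 0.0571 without that library, the knockout-labelled samples then being higher). Without it the groups did not overlap (8.04 to 16.07 against 6.32 to 6.68 CPM), and no split of so few samples is more extreme in that direction. A gene-level count can include reads outside the deleted part, so the Arntl levels do not test the deletion itself. Every direction in what follows is drawn from the labels.

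Start sites of the members are shown because the TOP tract at the first transcribed base is the sequence the family is known for. RefSeq promoters on GRCm38.p6, which is mm10 (the submitters' processing notes name mm10 and GRCm39), could be matched for 66 of the 91 members, and a gene counted as having a motif where any of its listed starts had it. A tract, taken as a C at the annotated first base and at least 4 further C or T bases, stood exactly at the start in 15 of 66 members (22.7%). It did so in 3.01% of the 27025 genes with a RefSeq promoter. Allowing the tract to begin between 5 bases before and 10 bases after the annotated start, the shares were 57.6% and 27.7%. In each line, 15 bases before the start are followed by the first 15 bases of the transcript, and capitals mark the tract. The lines are Rpl35 (chr2:39005117-39005146, minus strand), Rplp2 (chr7:141447636-141447665, plus strand), Rpl28 (chr7:4792950-4792979, plus strand), Rps6 (chr4:86857353-86857382, minus strand), Rps27 (chr3:90213634-90213663, minus strand), its retrogene Rps27rt (chr9:114982725-114982754, minus strand) and, with no tract, Rpl3l (chr17:24727811-24727840, plus strand).
Rpl35: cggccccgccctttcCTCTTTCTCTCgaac
Rplp2: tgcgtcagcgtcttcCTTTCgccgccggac
Rpl28: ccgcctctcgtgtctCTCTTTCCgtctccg
Rps6: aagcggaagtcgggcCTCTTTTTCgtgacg
Rps27: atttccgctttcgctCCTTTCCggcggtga
Rps27rt: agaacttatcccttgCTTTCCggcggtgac
Rpl3l: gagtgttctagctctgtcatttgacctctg

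The tract was longest in Rpl35 (11 bases) and Rps6 (9 bases) among these lines and shortest in Rplp2 (5 bases). Muscle-expressed Rpl3l has no tract exactly at either of its 2 annotated starts, but counted as having one in the wider window. The last 250 bases before the start shown (chr17:24727576-24727825, plus strand) hold a CAGCTG, the type of E-box that myogenic factors are known to bind, marked in capitals.
Rpl3l: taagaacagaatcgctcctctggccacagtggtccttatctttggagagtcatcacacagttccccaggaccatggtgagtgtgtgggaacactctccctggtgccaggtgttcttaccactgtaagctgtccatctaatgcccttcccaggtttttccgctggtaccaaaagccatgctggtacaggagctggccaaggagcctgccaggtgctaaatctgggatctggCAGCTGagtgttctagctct

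The promoter windows, from 250 bases before to 50 bases after the start, were searched for 3 further motifs on both strands, each counted without regard to overlap with another. CACGTG, the E-box that BMAL1 with CLOCK and the MYC family are known to bind, occurred in 6 of the 66 members (9.09%: Rpl13a, Rpl14, Rpl19, Rpl23, Rpl34 and Rps19), and in 8.09% of all genes with a promoter. CCGGAAG, a core of ETS-family sites, occurred in 24 members (36.4%) and in 9.93% of all genes with a promoter. CAGCTG occurred in 3 members (Rpl35, Rpl3l and Rpl6, 4.55%) and in 18.3% of all genes with a promoter. A match describes the letters only.

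Levels per length spanned a wide range. Averaged over the samples, CPM per kilobase of the main transcript ran from 0.615 for Rps23rg1 to 876.9 for Rps14, with a median of 79.3 over the 91 members. The highest per kilobase after Rps14 were Rps27rt (800.1), Rps15 (694.6), Rpl32 (537.6) and Rplp1 (525.7), and the lowest before Rps23rg1 were Rpl32l (2.24) and Rps4l (4.93). Rpl3l stood at 236.8 CPM per kilobase and Rpl3, the paralog expressed in most tissues, at 24.2. Members were short: the median main transcript had 774 bases, against 2909 for the other protein-coding genes tested.

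How reads were divided between near-identical copies touches many of these levels. For 49 members, over 50% of the 50-base words of their transcripts also occurred in another gene, and 3, Rpl3l and Rps19bp1 among them, shared no such word. Rows named as pseudogenes of a member existed for 53 members and held more counts than the member itself for 25. Rpl10, a large-subunit protein that joins late in assembly, had 12.9 CPM on its own row and 438.1 CPM on 4 pseudogene rows. Rps27 averaged 1.72 CPM while its retrogene Rps27rt averaged 299.2 CPM, and 98.6% of the words of Rps27 occurred elsewhere. By gene type, 84 members were protein coding in GENCODE M21 and 7 were pseudogenes (Rps3a2, Rps3a3, Rps12l1, Rps4l, Rpl6l, Rpl32l and Rpl37rt). Rps3a2, a processed pseudogene with 90.2% of its words shared, was at 226.8 CPM beside 268.3 CPM for Rps3a1. Rows of single members are therefore uncertain where sharing is high. Across libraries, the pseudogene rows held 30.2% to 33.8% of the counts of members and pseudogenes together.

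The members took up about 1% of all counts, with a wide spread within every group. In the vehicle sedentary group the 91 members held 0.724, 0.909, 1.02, 1.23 and 0.664% of a library's counts (libraries 1 to 5). The knockout sedentary libraries had 1.0, 1.02, 1.09, 0.761 and 0.664%. The vehicle trained libraries had 1.7, 1.88, 0.775, 1.3 and 1.27%, and the knockout trained libraries 0.727, 1.55, 1.18, 0.756 and 1.19%, of which 1 and 4, and 3 and 5, are 1 sample each. Group means were 0.911 ± 0.230% (SD, n = 5), 0.908 ± 0.185% (SD, n = 5), 1.39 ± 0.430% (SD, n = 5) and 1.16 ± 0.407% (SD, n = 3) in the same order. The sedentary groups had nearly the same mean. In the vehicle trained group 4 libraries lay above every sedentary library and library 3 lay among the low sedentary ones, so the groups overlapped. The knockout trained group spanned the sedentary range, with library 2 above all sedentary libraries and the couple 1 and 4 near the bottom.

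**Figure D1:**
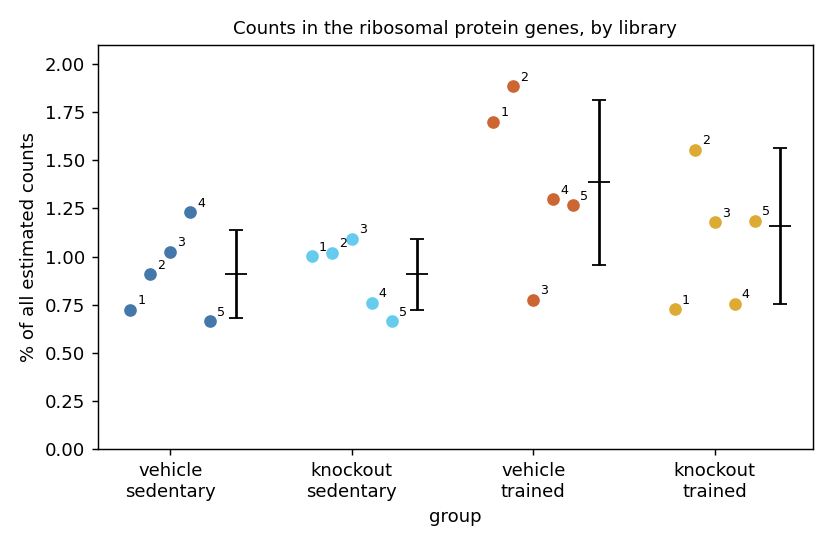
Percent of all estimated counts in the 91 ribosomal protein genes (vertical axis) for each library (points, with the library number) in the 4 groups, and the group mean ± SD (bars, n = 5, 5, 5 and 3, near-identical libraries averaged). Vehicle trained libraries lay between 0.775 and 1.88%, and the sedentary libraries between 0.664 and 1.23%.

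The members varied together from sample to sample. On log2(CPM + 1), the first principal component held 88.8% of the members' variance over the 18 samples, and 39.6% of the variance of all genes tested. Without vehicle trained library 2 these shares were 89.5% and 29.1%. The median member deviated from its mean over samples by 0.92 in vehicle trained library 2, 0.72 in vehicle trained library 1 and 0.59 in knockout trained library 2. It deviated by -0.64 in vehicle sedentary library 5, -0.63 in knockout sedentary library 5 and -0.51 in vehicle sedentary library 1. High and low samples therefore occurred within single groups. The SD within groups ranged from 0.13 for Rpl7l1 over 0.19 for Rpl3l and 0.23 for Rps19bp1 to 0.61 for Rpl17, 0.64 for Rps27l, a p53-inducible paralog of Rps27, and 0.65 for Rpl32, with a median of 0.44. The least variable members thus included the muscle paralog Rpl3l, and Rpl7l1 and Rps19bp1, which are not structural ribosomal proteins. Next came Rpl9 (0.24), Rpl4 (0.27) and Rpl5 (0.29), while Rps23rg1, a retrogene product, had 0.41.

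**Figure D2:**
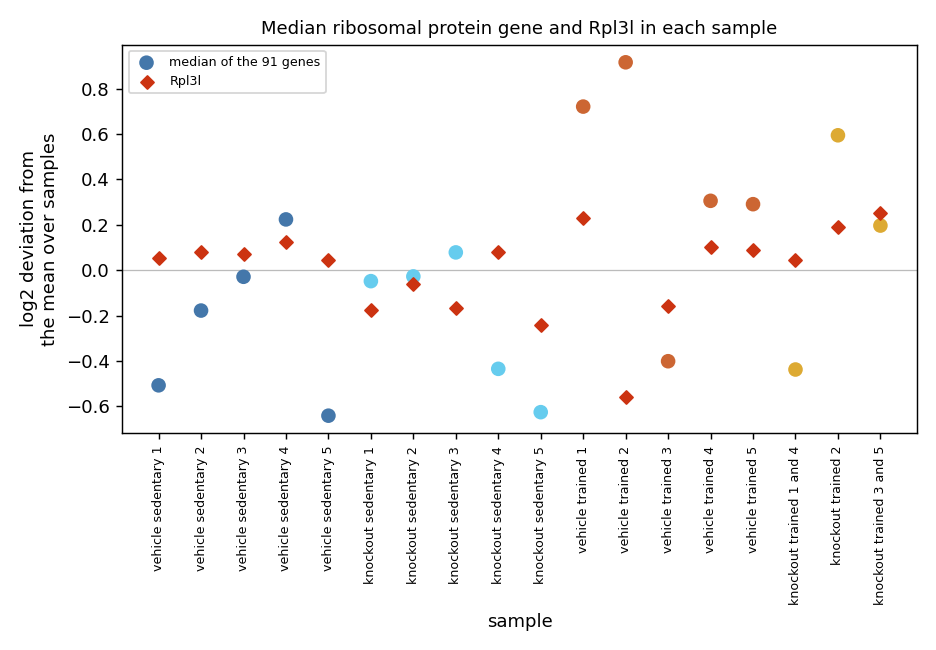
Deviation on the log2(CPM + 1) scale from the mean over the 18 samples (vertical axis) of the median ribosomal protein gene (circles, coloured by group) and of Rpl3l (diamonds) in each sample. The median member spans -0.64 to 0.92, and Rpl3l -0.56 to 0.25, with its lowest value in vehicle trained library 2, where the median member is highest.

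Macrophage marker sums were highest in the samples with the most counts in members, and other marker lists less clearly so. Macrophage, fibroblast and blood marker sums were all lowest in the samples with the fewest. The summed level of 6 macrophage markers, all 6 of them detected in every sample, was 329.6 CPM in vehicle trained library 2, 326.1 CPM in vehicle trained library 1 and 284.3 CPM in knockout trained library 2, the samples with the most counts in members. It was 47.4 CPM in vehicle sedentary library 1, 48.4 CPM in knockout trained couple 1 and 4, 72.9 CPM in vehicle sedentary library 5 and 73.6 CPM in knockout sedentary library 5, the samples with the fewest. The lowest fibroblast sums were in these samples too, at 1011, 929.8, 967.5 and 1230 CPM in the same order. So were the lowest blood sums, at 370.3, 429.4, 501.7 and 348.2 CPM. In vehicle trained library 2 the fibroblast sum was 1753 CPM and the blood sum 514.3 CPM. By group the macrophage sum ranged from 47.4 to 197.5 CPM in vehicle sedentary, 73.6 to 209.6 in knockout sedentary, 139.5 to 329.6 in vehicle trained and 48.4 to 284.3 in knockout trained samples. The 6 fibroblast markers, also detected throughout, ranged from 967.5 to 2137, 1230 to 2295, 1625 to 2902 and 929.8 to 2004 CPM in the same order. The 6 blood markers ranged from 370.3 to 863.8, 348.2 to 842.9, 514.3 to 2051 and 429.4 to 2893 CPM, and of these only Slc4a1 was at 0, in 2 samples. Knockout trained couple 3 and 5 had 1.18% of counts in members with a macrophage sum of 92.95 CPM. In vehicle trained library 2 the adipocyte markers (171.6 CPM) and the satellite cell markers (30.8 CPM) had their lowest sums of all samples. Adipocyte sums ranged from 223.2 to 465.8, 305.4 to 385.6, 171.6 to 1075 and 375.6 to 713.9 CPM in the same order of groups, and Schwann cell sums from 58.8 to 162.4, 65.6 to 116.6, 50.8 to 108.7 and 71.6 to 93.3 CPM. Endothelial sums ranged from 148.6 to 224.2, 186.7 to 225.6, 142.1 to 183.8 and 146.3 to 237.3 CPM, and satellite cell sums from 35.4 to 46.0, 45.7 to 57.3, 30.8 to 42.6 and 37.5 to 47.0 CPM. In bulk muscle, fewer cells of a type and less RNA per cell cannot be told apart, and the part of these cells in the members' differences was not tested.

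**Figure D3:**
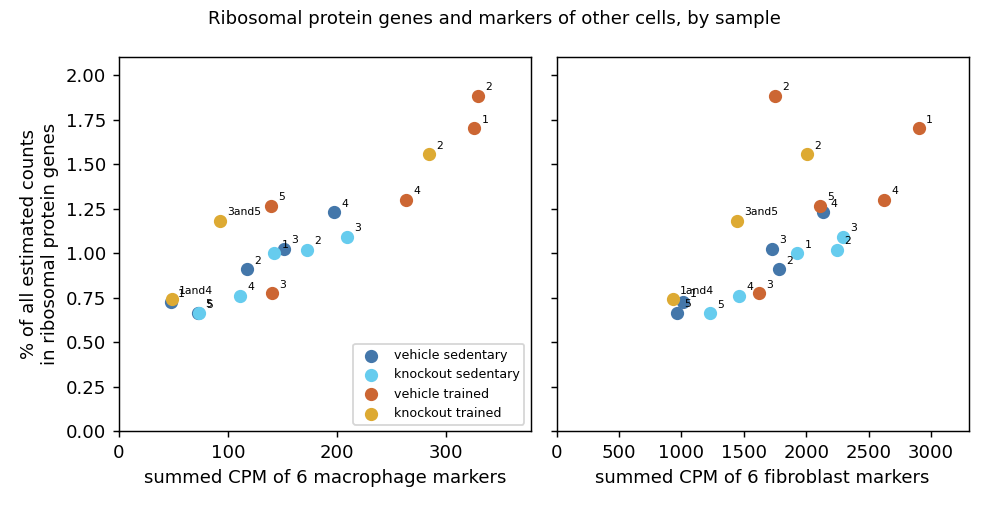
Percent of all estimated counts in the 91 ribosomal protein genes (vertical axes) against the summed CPM of 6 macrophage markers (left) and 6 fibroblast markers (right), 1 point per sample, coloured by group and numbered by library. Samples with macrophage sums of 284.3 CPM or more had 1.55% or more of their counts in the members, and the 4 samples with sums of 73.6 CPM or less had 0.741% or less.

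In vehicle muscle, the members were fitted higher after training as a group, and no single member was called. Of the 91 members, 90 were fitted higher in trained than in sedentary samples, with a median log2 difference of 0.71, against 0.03 over all genes tested. No member had an adjusted p under 0.05 (edgeR's quasi-likelihood test, Benjamini-Hochberg adjustment over 14361 genes, smallest adjusted p = 0.272), and the background was 0% of all genes. At an unadjusted p under 0.05, 76 members were higher and 0 lower, beside 10.5% of all genes higher and 4.75% lower. No member had groups that did not overlap, beside 0.251% of all genes in the higher and 2.73% in the lower direction. Vehicle trained library 3 lay below all sedentary samples for 13 members and above them for 0. Library 1 lay above all sedentary samples for 87 members, library 2 for 87, library 4 for 62 and library 5 for 50. Without library 2, the median difference was 0.51 and 49 members were higher at an unadjusted p under 0.05, beside 8.06% of all genes.

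The medians by position in the ribosome lay close together in vehicle muscle. The median was 0.68 over 50 large-subunit rows (43 at an unadjusted p under 0.05), 0.72 over 38 small-subunit rows (30) and 0.71 over the 3 stalk genes (3). Rpl35, a large-subunit protein near the exit of the nascent chain, had 25.1, 35.0, 34.5, 46.2 and 20.1 CPM in vehicle sedentary libraries 1 to 5. After training it had 95.8, 116.9, 29.1, 60.2 and 59.0 CPM, so 4 of 5 trained libraries lay above every sedentary one. Its log2 difference was 1.23 ± 0.35 (SE, adjusted p = 0.272 by edgeR's quasi-likelihood test). Rps25, a small-subunit protein known for its role in internal initiation, had 166.5, 197.8, 235.2, 304.3 and 128.1 CPM before and 531.6, 648.7, 178.5, 344.6 and 330.1 CPM after training. Again library 3 alone lay within the sedentary range (log2 difference 1.04 ± 0.32 SE, adjusted p = 0.272). Rpl37rt, typed as a transcribed pseudogene of the L37 gene, had 65.6 ± 17.0 CPM in sedentary and 113.5 ± 41.8 CPM in trained vehicle samples (SD, n = 5 each), and its log2 difference was 0.85 ± 0.26 (SE, adjusted p = 0.272). The stalk genes Rplp0, Rplp1 and Rplp2 differed by 0.54 ± 0.21, 0.71 ± 0.25 and 0.77 ± 0.28 on the log2 scale (SE).

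The 15 members without an unadjusted p under 0.05 in vehicle muscle were Rpl3l, Rpl7l1, Rps19bp1, Rps4l, Rps23rg1, Rpl32l, Rps3a3, Rpl31, Rpl5, Rpl4, Rpl8, Rps2, Rps7, Rps10 and Rps13. Rpl7l1 had 37.6 ± 2.72 CPM in sedentary and 38.5 ± 5.63 CPM in trained vehicle samples (SD, n = 5 each, log2 difference 0.08 ± 0.10 SE). Rps19bp1 had 5.89 ± 0.794 and 6.60 ± 1.92 CPM (0.22 ± 0.18 SE). Rpl5, which with Rpl11 and 5S RNA can bind Mdm2, had 15.3 ± 2.30 and 18.3 ± 6.13 CPM (0.31 ± 0.19 SE). The 81 members left after setting aside Rpl3l, Rpl7l1, Rps19bp1, Rps4l, Rpl32l, Rpl22l1, Rps27l, Rpl36al, Rpl6l and Rps12l1 had a median of 0.72, and 71 of them were higher at an unadjusted p under 0.05.

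In knockout-labelled muscle the fitted training difference rested on few samples. Its median was smaller than in vehicle muscle with all samples, but not without vehicle trained library 2. Again 90 of 91 members were fitted higher after training, with a median of 0.55 against -0.02 over all genes tested. No member was called (edgeR's quasi-likelihood test, smallest adjusted p = 0.246), beside 0% of all genes. At an unadjusted p under 0.05, 30 members were higher and 0 lower, beside 7.1% and 2.59% of all genes. Knockout trained library 2 lay above all knockout sedentary samples for 86 members and couple 3 and 5 for 49. Couple 1 and 4 lay above them for 3 members and below them for 12. Without library 2 the median difference was 0.26 and 3 members had an unadjusted p under 0.05, and without couple 3 and 5 these were 0.50 and 10. Without couple 1 and 4 it was 0.82, 73 members had an unadjusted p under 0.05 and 5 were called (Rplp2, Rpl28, Rps21, Rpl37a and Rpl36). With library totals in place of TMM scaling the median was 0.39, beside -0.15 over all genes, and 7 members had an unadjusted p under 0.05, and limma on log2(CPM + 1) gave 3. The shares of all genes at an unadjusted p under 0.05 in these other fits are not reported here. Without vehicle trained library 2, which enters here through the shared estimate of the spread, the median was 0.56, beside 0.51 in vehicle muscle. In knockout-labelled muscle 43 members then had an unadjusted p under 0.05, beside 11.1% of all genes higher and 6.42% lower. Of the members 1 was called, Rpl3l.

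Rplp2, a stalk protein, had 59.0, 69.5, 60.0, 52.3 and 46.4 CPM in knockout sedentary libraries and 63.7, 133.5, 113.5, 67.6 and 108.9 CPM in knockout trained libraries. The couple 1 and 4 lay inside the sedentary range and the rest above it. Its log2 difference was 1.01 ± 0.32 (SE, adjusted p = 0.249 by edgeR's quasi-likelihood test). Rpl37, a small zinc-binding protein of the large subunit, was the 1 member whose groups did not overlap, beside 2.1% of all genes in that direction and 9.77% in the lower one. It had 5.04, 5.35, 3.75, 4.63 and 3.33 CPM before and 7.26, 10.5, 9.45, 4.90 and 6.82 CPM after training in knockout-labelled muscle, where libraries 1 and 4 average above 5.35 CPM although 4 alone does not (1.04 ± 0.34 SE, adjusted p = 0.26). Rpl3 had a log2 difference of 1.06 ± 0.33 in vehicle muscle and 0.07 ± 0.38 in knockout-labelled muscle (SE). Rps27 was the 1 member fitted lower, by -0.32 ± 0.65 (SE), at 0.950 ± 0.0683 CPM in trained samples (SD, n = 3).

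**Figure D4:**
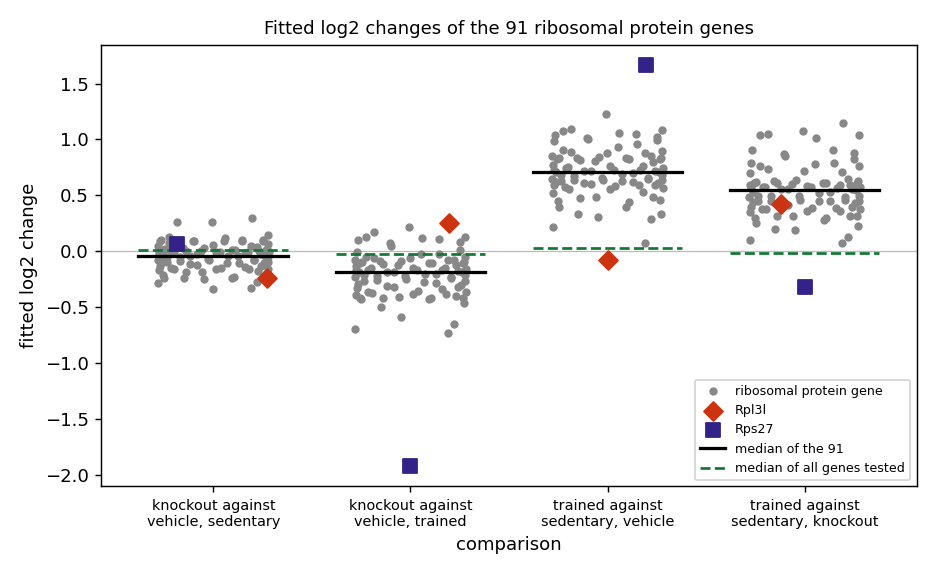
Fitted log2 changes (vertical axis) of the 91 ribosomal protein genes (points) in the 4 comparisons between groups, with Rpl3l (diamonds), Rps27 (squares), the median of the 91 (solid lines) and the median of all genes tested (dashed lines). The solid line lies at 0.71 and 0.55 in the training comparisons and at -0.04 and -0.18 in the knockout comparisons. No point passed the test after adjustment.

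Fitted training differences of genes outside the family varied with transcript length. Among the other genes tested, split by main transcript length into 5 equal bins, the shortest bin (204 to 1656 bases) had a median log2 difference of 0.13 in vehicle and 0.19 in knockout-labelled muscle. The longest bin (from 4832 bases) had -0.02 and -0.16. In vehicle trained library 1 and knockout trained library 2, where members were high, the shortest bin deviated by 0.18 in each. The longest bin deviated there by -0.13 and -0.305. In vehicle trained library 2, where members were highest, the shortest bin deviated by -0.08 and the longest by -0.19. The part of transcript length in the members' differences was not tested.

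Between genotypes in sedentary muscle, fitted differences of the members were small. The median log2 difference, knockout-labelled minus vehicle, was -0.04, against 0.01 over all genes tested, with 33 members fitted higher and 58 lower. Leaving out 1 sample gave medians from -0.12 to 0.08, the highest without vehicle sedentary library 4, so its sign was not stable. No member was called (edgeR's quasi-likelihood test, smallest adjusted p = 0.516) and 0 had an unadjusted p under 0.05, beside 2.33% of all genes called and 4.64% higher and 5.18% lower at the unadjusted threshold. No member had groups that did not overlap, beside 5.63% and 3.77% of all genes. The members fitted lower with the smallest p were Rpl3l (-0.24 ± 0.11 SE), Rpl5 (-0.24 ± 0.19 SE) and Rpl28 (-0.24 ± 0.21 SE). Rpl39, a protein of the peptide exit tunnel (0.29 ± 0.30 SE), and Rpl3 (0.26 ± 0.33 SE) were among those fitted higher with the smallest p.

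In trained muscle, 79 members were fitted lower and 12 higher in knockout-labelled than in vehicle samples, with a median of -0.18 against -0.03 over all genes tested. No member was called (edgeR's quasi-likelihood test, smallest adjusted p = 0.124), beside 3.29% of all genes. At an unadjusted p under 0.05, 1 member was lower and 0 higher, beside 8.83% and 8.35% of all genes. Groups that did not overlap were found for 0 members, beside 3.98% of all genes in the higher and 3.98% in the lower direction. The member was Rps27, at 2.08, 10.7, 0.947, 1.87 and 2.03 CPM in vehicle trained libraries and 1.19, 1.02, 0.882, 0.595 and 0.988 CPM in knockout trained ones. Its difference was -1.92 ± 0.65 (SE) with library 2 and -0.83 without it. Rpl10a (-0.69 ± 0.34 SE) and Rpl3 (-0.73 ± 0.39 SE) also had their highest value in library 2, at 68.1 and 96.8 CPM. Without that library the members' median was -0.01, without knockout trained couple 1 and 4 it was 0.09, and without knockout trained library 2 it was -0.455 with 7 members at an unadjusted p under 0.05. The sign of the median in trained muscle thus depended on which sample was left out.

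The interaction, the training difference in knockout-labelled minus that in vehicle muscle, had a median of -0.16 over the members, against -0.02 over all genes tested. No member was called (edgeR's quasi-likelihood test), beside 0% of all genes. At an unadjusted p under 0.05 there were 1 higher member, Rpl3l, and 1 lower, Rps27, beside 3.85% and 3.65% of all genes. The median was 0.04 without vehicle trained library 2, 0.12 without knockout trained couple 1 and 4 and -0.44 without knockout trained library 2. Rplp2 (0.24 ± 0.43 SE) and Rpl31 (0.28 ± 0.38 SE) were the other members fitted higher with the smallest p, and Rpl3 (-0.99 ± 0.51 SE) and Rpl10a (-0.59 ± 0.44 SE) the other members fitted lower.

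Rpl3l, the muscle paralog of Rpl3, departed most from the family in vehicle trained library 2, where it deviated by -0.56 from its mean and the median member by 0.92. In vehicle trained libraries 1, 3, 4 and 5 it deviated by 0.23, -0.16, 0.10 and 0.09 and the median member, in the same direction, by 0.72, -0.40, 0.31 and 0.29. It had 331.6, 337.7, 336.1, 348.2 and 330.0 CPM in vehicle sedentary libraries, a mean of 336.7 ± 7.15 CPM (SD, n = 5). The knockout sedentary libraries had 283.1, 306.2, 284.3, 337.8 and 269.8 CPM, of which library 4 lay inside the vehicle range and the other 4 below it. The vehicle trained libraries had 374.6, 216.4, 286.7, 343.6 and 339.6 CPM, with library 2 the lowest of the series. The knockout trained libraries had 332.6, 365.1, 374.3, 327.1 and 387.0 CPM, all but library 4 and library 1 above every knockout sedentary value. Its log2 differences were -0.24 ± 0.11 for knockout in sedentary muscle (adjusted p = 0.516), 0.26 ± 0.13 for knockout in trained muscle (adjusted p = 0.330), -0.07 ± 0.11 for training in vehicle muscle (adjusted p = 0.750) and 0.42 ± 0.13 for training in knockout-labelled muscle (adjusted p = 0.246, SE, all by edgeR's quasi-likelihood test). The interaction was 0.50 ± 0.17 (SE, unadjusted p = 0.011, adjusted p = 0.629 by the same test). Without vehicle trained library 2 the training difference in knockout-labelled muscle passed the threshold (0.43, adjusted p = 0.0478 by edgeR), and that in vehicle muscle was 0.03. It is 1 of the 3 members that share no 50-base word with another gene, so copies of that length do not touch its row.

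Rpl3 itself was low and uncertain in these counts. Its row had 24.7 ± 8.40 CPM in vehicle sedentary, 30.7 ± 7.50 in knockout sedentary and 49.1 ± 28.3 in vehicle trained samples (SD, n = 5 each), and 28.9 ± 11.8 in knockout trained samples (SD, n = 3). Its 2 pseudogene rows averaged 118.9 CPM. Summed with them, the Rpl3 family had 116.0 ± 40.8, 141.4 ± 43.2, 224.4 ± 103.4 (SD, n = 5 each) and 135.5 ± 50.5 CPM (SD, n = 3) in the same order. The Rpl3l row lay above this sum in every sample except vehicle trained library 2, where the sum was 389.0 and Rpl3l 216.4 CPM.

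**Figure D5:**
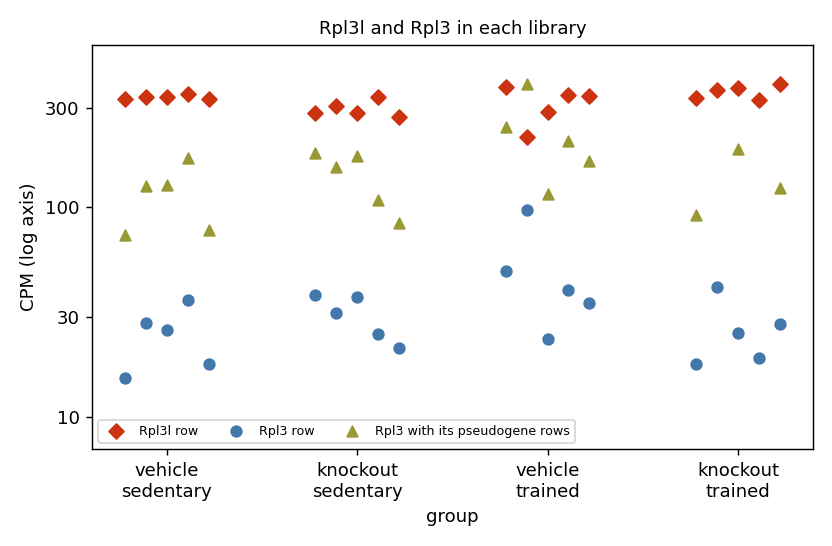
CPM on a log axis of the Rpl3l row (diamonds), the Rpl3 row (circles) and Rpl3 summed with its 2 pseudogene rows (triangles) in each group, 1 point per library, with the triangles of the knockout trained group drawn for its 3 samples. Rpl3l stays between 216.4 and 387.0 CPM while the Rpl3 row spans 15.3 to 96.8 CPM.

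Most of the other paralogs had training differences nearer to the median of the family. Rpl22l1, the paralog of the RNA-binding protein Rpl22, had 58.3 ± 17.8, 64.5 ± 18 and 118.9 ± 58.0 CPM in vehicle sedentary, knockout sedentary and vehicle trained samples (SD, n = 5 each) and 88.3 ± 45.3 CPM in knockout trained samples (SD, n = 3). Its training difference in vehicle muscle was 1.09 ± 0.34 (SE), and that of Rpl22 was 0.49 ± 0.19. The difference between these paralogs was not tested. Rps27l differed by 1.08 ± 0.35 and its retrogene-derived relative Rps27rt by 0.98 ± 0.33 in the same comparison. Rps27 itself had 1.17 ± 0.334 CPM in vehicle sedentary and 3.52 ± 4.03 CPM in vehicle trained samples (SD, n = 5 each). Vehicle trained library 2 had 10.7 CPM and the others of its group 0.947 to 2.08 CPM. Rpl36al differed by 0.59 ± 0.20 and Rpl36a by 0.61 ± 0.27, and Rps4x, the X-linked S4 gene, by 0.65 ± 0.25 while the S4-like pseudogene Rps4l, at 3.62 ± 0.409 CPM in vehicle sedentary samples (SD, n = 5), differed by 0.29 ± 0.25. Rpl6 and Rpl6l differed by 0.65 ± 0.26 and 0.62 ± 0.24, Rpl32 and Rpl32l by 1.05 ± 0.36 and 0.83 ± 0.55, and Rps12 and Rps12l1 by 0.93 ± 0.33 and 1.02 ± 0.34. Rpl7, with 0.52 ± 0.19, stood above its nucleolar relative Rpl7l1.

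Members with a TOP tract at the annotated start had somewhat higher medians of the training difference than those without, which was not tested. In vehicle muscle the training difference had a median of 0.83 over the 15 with the tract and 0.69 over the 51 matched members without it, and in knockout-labelled muscle 0.63 and 0.49. For the knockout these medians were -0.07 and -0.04 in sedentary and -0.18 and -0.215 in trained muscle. The members without the tract include Rpl3l, Rpl7l1 and Rps19bp1, and others that have a tract only in the wider window. The 6 members with CACGTG had medians of -0.08 and -0.29 for the knockout in sedentary and trained muscle, and the 91 members -0.04 and -0.18. The 91 include these 6 and also members without a matched promoter, and this difference was not tested either. As given above, the sign of the members' median was not stable in either comparison. Members with over 50% of their words shared had a median training difference of 0.71 in vehicle muscle, and those under it 0.72.

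Related genes were taken in 3 lists, of which the third also holds the member Rps6. The first holds 22 genes, the ribosomal proteins with other symbols and further TOP messenger RNAs. In vehicle muscle, 12 of the 22 were higher after training at an unadjusted p under 0.05 and 0 lower, with a median of 0.45, beside 10.5% and 4.75% of all genes. In knockout-labelled muscle 4 were higher and 0 lower, with a median of 0.30, beside 7.1% and 2.59%. Without vehicle trained library 2, in which 16 of the 22 had their highest level, 6 were higher in vehicle muscle with a median of 0.26, and 12 in knockout-labelled muscle with a median of 0.31, beside 8.06% and 11.1% of all genes. Fau, the precursor of S30, differed by 0.77 ± 0.27 and 0.80 ± 0.31 (SE) in vehicle and knockout-labelled muscle. Rpsa, the laminin-binding small-subunit protein SA, differed by 0.45 ± 0.20 and 0.54 ± 0.23, and Rack1, the scaffold on the small subunit, by 0.49 ± 0.21 and 0.44 ± 0.24. Eef1a1, the elongation factor encoded by a TOP messenger RNA, differed by 0.75 ± 0.28 in vehicle muscle, and Eef1a2, its counterpart in muscle fibres and neurons, by 0.01. In knockout-labelled muscle Eef1a1 differed by 0.09 and Eef1a2 by 0.20, so the pair did not part in that way there. Eef1a2 had 1203 ± 87.2 CPM in vehicle sedentary and 1177 ± 105.0 CPM in vehicle trained samples (SD, n = 5 each).

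The second list holds 37 genes of ribosome biogenesis and RNA polymerase I. In vehicle muscle 8 were higher and 2 lower after training at an unadjusted p under 0.05, with a median of 0.22, beside 10.5% and 4.75% of all genes. In knockout-labelled muscle 3 were higher, with a median of -0.05, beside 7.1%. In trained muscle 13 were lower in knockout-labelled samples, with a median of -0.21, beside 8.83% of all genes lower. Vehicle trained library 2 had the highest level of all samples for 27 of the 37. Without it, 1 was higher and 2 were lower after training in vehicle muscle, with a median of -0.03, and 3 were lower in knockout-labelled trained samples, with a median of -0.04, beside 10.3% of all genes. Gnl3, a nucleolar GTP-binding protein, had 173.4 CPM in that library and 18.4 to 32.2 CPM in every other sample. Among the 13 was Myc, a transcriptional activator of ribosome biogenesis, at 84.4 CPM in vehicle trained library 2 and 4.88 to 11.0 CPM in every other sample, so that its difference of -1.74 ± 0.75 (SE) rested on that library. The third list holds 20 genes of mTOR and TOP control, with medians of 0.03 and -0.06 for training in vehicle and knockout-labelled muscle. None of the 3 lists held a called gene in any of the 5 comparisons (edgeR's quasi-likelihood test). Without vehicle trained library 2, which here enters through the shared estimate of the spread, Sesn1 (0.42, adjusted p = 0.0105 by edgeR), Rictor (0.38, 0.0199), Eef2 (-0.40, 0.0205) and Eif4e (-0.27, 0.0493) passed for the knockout in sedentary muscle. In that fit 8.7% of all genes were higher and 8.95% lower at an unadjusted p under 0.05, beside 4.64% and 5.18% with the library. In trained muscle, where that library is itself 1 of the samples compared, Nap1l1 passed without it (-0.36, adjusted p = 0.0148 by edgeR). There 12.1% of all genes were higher and 10.3% lower at the unadjusted threshold. The shares of all genes called in these fits are not reported here. Eif4ebp1, a repressor of translation that mTORC1 inactivates, was at 415.2 CPM in vehicle trained library 2 and 23.0 to 39.1 CPM elsewhere.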

How the data were processed

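Messenger RNA of 20 mouse hindlimb muscle libraries was measured by sequencing. RNA was extracted with Trizol and a column kit, per the labels' protocols. The submitters' processing notes name STAR 2.7.8a, Partek, DESeq2, mm10 and GRCm39, without roles, and strandedness is not given in the sources used here. The values the authors deposited are estimated counts, made before deposit by a counting step that is not given in the sources used here. That unit was judged from the values: 72.0% are whole numbers and column totals run from 10610333 to 19153527. The lowest sum of any gene is 10. Intervals from depth were not needed, since errors are SDs over samples or standard errors of fits.

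The members, lists and tests were chosen with earlier results of these data known. Counts were rounded. All 190 pairs of libraries were compared for sampling noise. Knockout trained libraries 1 and 4, and 3 and 5, had variance of up to 2.38 times the Poisson expectation in genes of 1000 to 10000 counts, against 6.38 or more in other pairs. Its ratio to that in genes of 10 to 100 counts was under the limit of 1.5 in these couples and 2.31 or more in other pairs. Each of the couples was summed for tests, averaged for means and counted as 1 sample.

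The 14361 genes that reached 1 CPM in 5 or more libraries were fitted over 18 samples with 4 group means and TMM scaling, using the quasi-likelihood test of edgeR 4.0.16 under R 4.3.3. It was two-sided, with Benjamini-Hochberg adjustment over all of them in each of 5 contrasts and a threshold of 0.05. Members' medians are descriptions without a test. Counts of 14361 genes were simulated from each gene's mean over the 18 samples and its fitted spread, with changes placed in the knockout sedentary group. Of these, 51 of 100 genes changed by 1 on the log2 scale and 97 of 100 changed by 2 were recovered, with 4 calls among 14161 unchanged genes. Genes were drawn independently, while the members varied together, so these rates do not describe recovery of the members or of training differences. Arntl was compared by an exact permutation test of log2(CPM + 1). CPM uses library totals. Lengths are of a single main transcript per gene in GENCODE M21, from which 70 identifiers of the table were missing, though no member. It was chosen by principal-isoform rank, then coding type and annotation support, and the shortest was taken only among equals. For pseudogenes it is not a coding transcript. Shared words are 50-base stretches of M21 transcripts. Promoters are from RefSeq (GRCm38.p6).

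Named members are paralogs and stalk genes, the members with the smallest p in each direction of each contrast, those with the highest and lowest level per kilobase, and those with the smallest and largest SD within groups. A few genes that these rules or the lists take are counted but not reported by name here. Alternatives were other scalings (DESeq2 1.42.0 size factors, library totals), DESeq2's Wald test, limma 3.58.1, no filter, all 20 libraries, a replicate block, fits of only the groups compared, and leaving out each sample. Summing members with their pseudogene rows was added after seeing the data.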

Additional observations from a re-analysis of the deposited data

Results flagged for a closer look

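In 120 groups of 5 samples, measures that included named members and Arntl were searched for a sample far from the rest of its group by Dixon's criterion. Chance meets this criterion in about 1 of 20 groups, or 6 here. It was met 6 times, in 3 of them by vehicle trained library 2. Rpl10a had 68.1 CPM in that library and 17.7 to 27.4 CPM in the other vehicle trained libraries. Rps27 had 10.7 CPM there and 0.947 to 2.08 CPM in the others. Arntl had 132.3 CPM there and 6.32 to 6.68 CPM in the others.

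Rpl7l1 had 48.2 CPM in vehicle trained library 1 and 34.2 to 37.9 CPM in the others of its group. Rpl5 had 11.0 CPM in knockout sedentary library 5 and 13.8 to 14.6 CPM in the others. Arntl had 18.9 CPM in knockout sedentary library 1 and 11.0 to 13.1 CPM in the others.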

How the results depend on the processing

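No member was called in any of the 5 comparisons, and this differed in few alternatives. For the knockout difference in trained muscle, DESeq2's Wald test and the fit of 20 separate libraries each called 1 member, Rps27. For the training difference in knockout-labelled muscle, DESeq2's Wald test called 1, Rpl3l, and leaving out 1 sample gave 0 to 5. Leaving out 1 sample gave 0 in the other comparisons. Over all genes, DESeq2's Wald test called 15 for training in vehicle muscle, 198 for training in knockout-labelled muscle and 26 for the interaction, where edgeR called 0. For the knockout it called 537 in sedentary and 907 in trained muscle, where edgeR called 334 and 473. Fits of only the groups compared called 1178 and 20 for these. With 20 separate libraries, 1225 were called for the knockout in trained muscle and 49 for training in knockout-labelled muscle. Share denominators without the 10 most abundant genes gave means of 1.14% and 1.13% for the vehicle and knockout sedentary groups.

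Signs reversed for Rpl9 (-0.16, knockout in trained muscle) and Rpl31 (-0.10, interaction) after summing pseudogene rows, and for Rpl3 (training in knockout-labelled muscle) with library totals (-0.093), limma (-0.12) and 20 separate libraries (-0.053). On leaving out 1 sample, signs reversed for Rpl3l (0.027, training in vehicle muscle, without vehicle trained library 2), Rpl3 (-0.02 without knockout sedentary library 5 and -0.29 without knockout trained library 2), Rpl31 (-0.0080 without knockout trained library 2) and Arntl in trained muscle (0.62 without vehicle trained library 2). Leaving out 1 sample gave ranges of -0.50 to 0.62 for Arntl in trained muscle, -0.14 to 0.027 for Rpl3l, -0.29 to 0.36 for Rpl3 (to 0.165 without a single library) and -0.0080 to 0.58 for Rpl31 (to 0.43 without a single library) in these comparisons.

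Replicate numbers are shared across groups, but 11 of 30 same-numbered pairs of libraries deviated together with a correlation over 0.1 (range -0.39 to 0.35), so the numbers were not taken to pair samples. With the number as a replicate block on 20 libraries, 1 member was called for the knockout in trained muscle (Rps27), 980 genes were called in that comparison, 18 members had an unadjusted p under 0.05 for training in knockout-labelled muscle in place of 30, and Rpl3 reversed to -0.12 for training in knockout-labelled muscle. The libraries' depth left Rps27 and Rpl32l at few counts, and read sharing between copies limits single members.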

Other observations

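Some genes of the related lists had small unadjusted p-values in the genotype comparisons without passing the adjusted threshold. Rictor, the defining subunit of mTORC2, was fitted higher in knockout-labelled sedentary muscle by 0.38 ± 0.11 (SE, adjusted p = 0.0994 by edgeR's quasi-likelihood test). Eef2, the elongation factor that moves the ribosome along the messenger RNA, was fitted lower in knockout-labelled sedentary muscle by -0.41 ± 0.13 (adjusted p = 0.168). Nap1l1, a histone chaperone with a TOP messenger RNA, was fitted lower in knockout-labelled trained muscle by -0.63 ± 0.19 (adjusted p = 0.0884). Each of these 3 passed when vehicle trained library 2 was left out, in fits where more of all genes had an unadjusted p under 0.05.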
